A study of Mus musculus with 12 samples.

Results

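Lipid droplet and fatty acid uptake genes were examined in the kidney transcriptomes of db/m and db/db mice. The genes were 10, chosen by symbol for their place in lipid storage and uptake: the perilipins Plin2, Plin3, Plin4 and Plin5, the uptake receptor Cd36, the fatty acid-binding proteins Fabp1 and Fabp4, the triglyceride synthases Dgat1 and Dgat2, and the lipase Pnpla2. All 10 were among the 57490 genes of the count table, and all 10 were among the 17431 genes with enough counts to be tested. The study asked how a diabetic kidney differs from a non-diabetic one and how treatment with YHY, a herbal extract, changes the diabetic kidney. Male mice on the BKS background formed 3 groups of 4, with 1 library of polyA-selected RNA from each mouse. Ctrl mice were db/m animals (also written db/+) that carry a single copy of the mutant leptin receptor gene and received purified water. Model mice were db/db animals that lack a working leptin receptor, were chosen for high blood glucose and also received purified water. YHY mice were db/db animals chosen in the same way that received the extract at 6.24 g/mL by daily gavage. Gavage lasted 4 weeks in every group, and the mice were 13 weeks old. The sample titles name kidney as the tissue, whereas the design text names renal cortex. Which of the YHY doses of the study was sequenced is not given in the sources used here.

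Fatty acids reach tubule cells from the blood and the filtrate, are bound by carrier proteins in the cytosol, and are either burned in mitochondria or esterified to triglyceride. Triglyceride is stored in droplets whose surface is coated by perilipins, and lipases at that surface release the fatty acids again. The proximal tubule draws most of its energy from fatty acid oxidation, and droplets accumulate there in fasting, obesity and diabetes.

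Total counts per mouse lay between 24415658 and 33276634. Levels are given below as CPM, counts scaled to a common library size with factors from the trimmed mean of M values (TMM), and as FPKM, the same value per kilobase of the deposited gene length, wherever genes are set beside each other. Transcripts of the mitochondrial genome took 19.5% ± 2.12 (SD, n = 4) of all counts in Ctrl mice, 52.2% ± 7.68 in Model mice and 56.8% ± 5.21 in YHY mice. Model 1 stood apart within its group: its mitochondrial share was 41.2%, against 53.4 to 58.9% in the other Model mice, and a chi-square comparison of its counts with theirs over all genes gave 102 to 147 per degree of freedom, against 21.8 to 32.3 among those 3. The same measure ran from 18.2 to 116 among the Ctrl mice and from 34.7 to 101 among the YHY mice. Markers of the labelled tissue were present in each mouse: none of the 9 proximal tubule markers was at 0 in any library, and Slc34a1, the phosphate transporter of the brush border, was the most abundant of them in all 12.

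A gene was called where the adjusted p of edgeR's quasi-likelihood test, by Benjamini-Hochberg over the 17431 genes, lay under 0.05. Between Model and Ctrl, 1 of the 10 genes was called higher, where 19.6% of all genes were, and 3 were called lower, where 18.5% of all genes were. Plin4 was the gene called higher, and Plin2, Plin3 and Cd36 were called lower. Between YHY and Model, 4 of the 10 genes were called higher (Plin2, Plin4, Plin5 and Pnpla2), against 5.63% of all genes. None was called lower by edgeR, against 7.62% of all genes, while 2 were lower at an unadjusted p under 0.05 and the same number by DESeq2, namely Cd36 and Dgat2. Between YHY and Ctrl, 3 of the 10 were called higher (Plin4, Fabp1 and Pnpla2), against 26.1% of all genes, and 2 were called lower (Cd36 and Dgat2), against 24.2%. The YHY and Model comparisons with Ctrl share the Ctrl mice, and the Model mice stand in both of the others. The median log2 fold change of the 10 genes was -0.28 for Model against Ctrl, 0.41 for YHY against Model and 0.23 for YHY against Ctrl, and that of all genes tested was 0.04, 0.02 and 0.10. With 1 mouse left out at a time, 1 of the 10 genes was called higher between Model and Ctrl each time, and 2 (without Ctrl 3, Ctrl 4, Model 2, Model 3 or Model 4) to 4 (without Ctrl 1) were called lower. For YHY against Model, 2 (without Model 2 or Model 3) to 4 were called higher and 0 to 2 (without YHY 4) lower. YHY against Ctrl gave 1 (without Ctrl 1, Ctrl 4 or YHY 4) to 3 higher and 2 to 3 lower. Of all genes, the 982 called higher between YHY and Model became 419 without Model 3, 600 without Model 4 and 634 without Model 1, and the 1329 called lower ranged from 727 without Model 3 to 1678 without YHY 4.

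**Figure D1:**
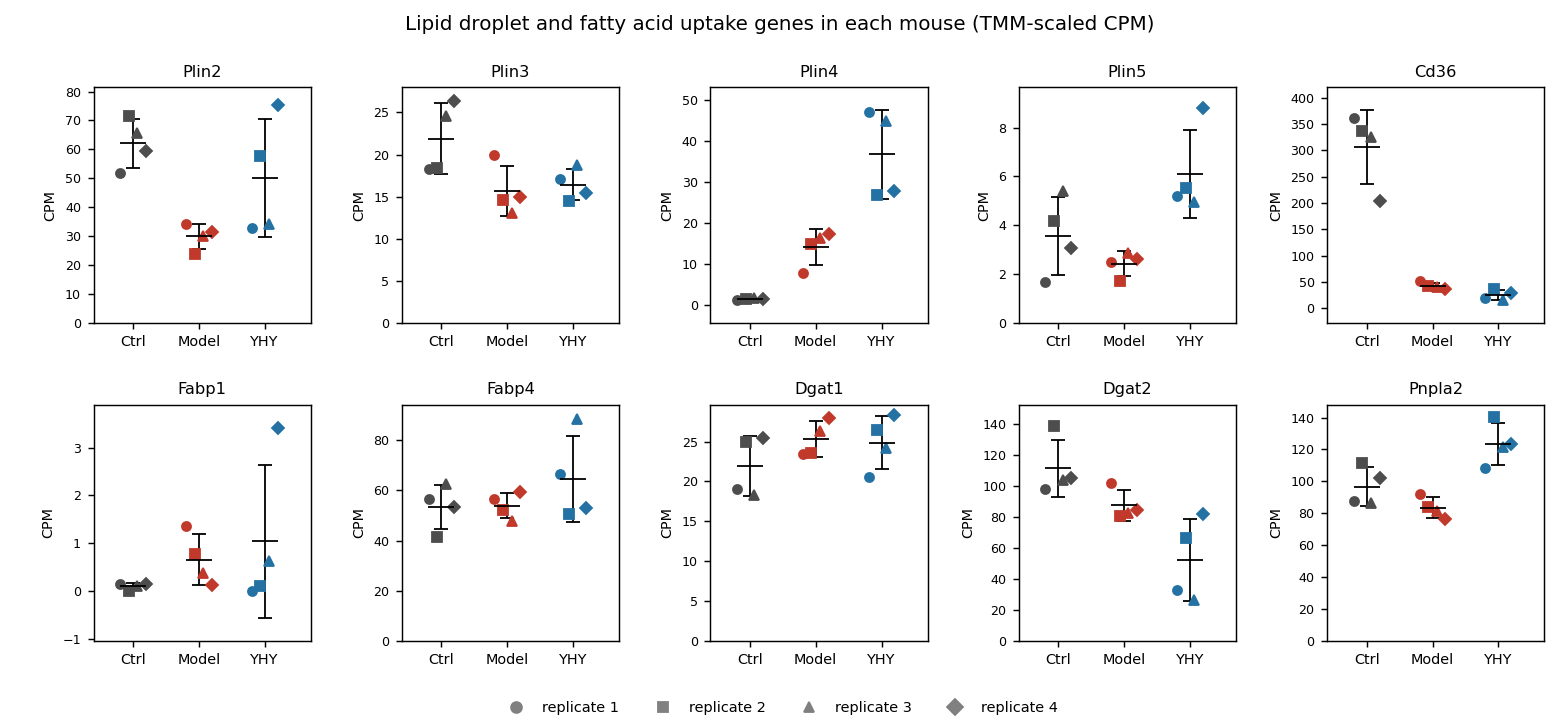
TMM-scaled CPM of each of the 10 genes (vertical axis, 1 panel per gene) in the Ctrl, Model and YHY groups, with 1 symbol per mouse, the shape giving the replicate number, and the horizontal bar and whiskers giving the mean and SD of 4 mice. Plin4 lies under 1.8 CPM in the Ctrl mice and above 26 CPM in the YHY mice, and Cd36 lies above 200 CPM in the Ctrl mice and under 51 CPM in the other 8.

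In 4 mice a group, the smallest two-sided p that an exact permutation test of group means can give was 0.0286. The values of the groups did not overlap for 3 of the 10 genes between Model and Ctrl, where that held for 40.2% of all genes, for 4 between YHY and Model, against 16.1%, and for 3 between YHY and Ctrl, against 44.6%. Scaling by total counts alone shifted the median log2 fold change of all genes to -0.39 for Model against Ctrl, 0.03 for YHY against Model and -0.33 for YHY against Ctrl. With TMM these medians were 0.04, 0.02 and 0.10. With total-count scaling 1547 genes were called higher and 5667 lower between Model and Ctrl, beside 3412 and 3219 with TMM. Between YHY and Ctrl the numbers were 2365 and 5977, beside 4547 and 4215. Relative to the total-count medians, the 10 genes kept their TMM signs in all 3 comparisons, except Fabp4 between Model and Ctrl. Fabp4 was at -0.03 on the log2 scale there. Its TMM value, 0.01, was not taken relative to a median and was itself under the TMM median of 0.04.

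Plin2 codes for the droplet coat protein found in almost every cell that stores lipid. Its level was 51.8, 71.4, 65.6 and 59.3 CPM in Ctrl mice 1 to 4, 34.2, 24, 30.0 and 31.3 CPM in Model mice 1 to 4, and 32.8, 57.7, 34.1 and 75.3 CPM in YHY mice 1 to 4. Every Model mouse lay under every Ctrl mouse. Among the YHY mice, 2 and 4 lay above all Model mice, with YHY 4 above every Ctrl mouse as well, while YHY 1 and 3 lay within the range of the Model mice. The group means were 62.0 ± 8.41, 29.9 ± 4.32 and 50.0 ± 20.4 CPM (SD, n = 4 each). Whether fewer cells of a type or less RNA per cell underlies a difference cannot be told apart in these bulk libraries. Plin2 was 2.07-fold lower in Model than in Ctrl mice (log2 fold change -1.05, SE 0.23, adjusted p = 0.00212; exact permutation p = 0.0286). It was 1.67-fold higher in YHY than in Model mice (log2 fold change 0.74, SE 0.23, adjusted p = 0.0443), with a two-sided exact permutation p of 0.0857. That second call was lost without Model 1 (adjusted p = 0.0558), Model 2 (0.117), Model 3 (0.106), Model 4 (0.0796), YHY 2 (0.102) or YHY 4 (0.123, with a log2 fold change of 0.47), and also in the fit of the 8 mice compared (0.0647), in that of the 9 mice the authors averaged (Ctrl 1, 3 and 4, Model 2, 3 and 4, and YHY 1, 2 and 3; 0.0964) and with total-count scaling (0.0811). A block on the replicate number also ended that call. Between YHY and Ctrl the log2 fold change of Plin2 was -0.31 (SE 0.23, adjusted p = 0.271), and -0.58 without YHY 4, where the adjusted p was 0.0238. It was nearer to 0 without YHY 1 (-0.16, adjusted p = 0.58) or YHY 3 (-0.17, adjusted p = 0.568). Total-count scaling (-0.78, adjusted p = 0.00893) and the fit of 9 mice (-0.55, adjusted p = 0.0359) also called it, and 15 of all 18 alternatives did not.

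Plin3, a coat protein that moves between the cytosol and newly formed droplets, differed less. Its level was 18.2, 18.4, 24.6 and 26.3 CPM in Ctrl mice 1 to 4, 19.9, 14.6, 13.1 and 14.9 CPM in Model mice, and 17.1, 14.4, 18.7 and 15.5 CPM in YHY mice. Model 1 lay above Ctrl 1 and Ctrl 2, so that the groups overlapped, and the other 3 Model mice lay under all Ctrl mice. Plin3 was 1.40-fold lower in Model than in Ctrl mice (log2 fold change -0.48, SE 0.17, adjusted p = 0.0375; exact permutation p = 0.0857). The call was lost with upper-quartile scaling (adjusted p = 0.101) and without Ctrl 3 (0.0867), Ctrl 4 (0.0966), Model 2 (0.0917), Model 3 (0.115) or Model 4 (0.0871). The replicate block ended the call as well. The log2 fold change between YHY and Model was 0.07 (SE 0.17, adjusted p = 0.84), and it turned to -0.0091 without Model 3 and -0.0012 without YHY 3. Between YHY and Ctrl it was -0.41 (SE 0.17, adjusted p = 0.0576), and that difference passed the threshold without Ctrl 1 (0.0326), Ctrl 2 (0.0392) or YHY 3 (0.0462). In all, 7 of 18 alternatives called it and 11 did not, with an adjusted p of up to 0.188.

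Plin4 codes for a large perilipin that coats small nascent droplets and is best known from adipose tissue and muscle. Its level was 1.27, 1.53, 1.74 and 1.43 CPM in Ctrl mice 1 to 4, 7.89, 15.0, 16.4 and 17.4 CPM in Model mice 1 to 4, and 47.2, 27.0, 45 and 27.9 CPM in YHY mice 1 to 4. The 3 groups did not overlap in any pair, with Ctrl lowest and YHY highest. Model 1 was the lowest of its group, and YHY 1 and 3 were higher than YHY 2 and 4. The deposited counts behind these levels ran from 49 to 71 in Ctrl, 245 to 408 in Model and 488 to 1236 in YHY mice. Plin4 was 9.45-fold higher in Model than in Ctrl mice (log2 fold change 3.24, SE 0.27, adjusted p = 1.35e-06). It was a further 2.60-fold higher in YHY than in Model mice (log2 fold change 1.38, SE 0.24, adjusted p = 0.00262), and 24.6-fold higher in YHY than in Ctrl mice (log2 fold change 4.62, SE 0.28, adjusted p = 1.95e-08). Each of these 3 differences had a two-sided exact permutation p of 0.0286. Per length, Plin4 ranked 14773 of 17431 genes by mean FPKM in Ctrl mice, 8522 in Model mice and 4584 in YHY mice.

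Plin5 codes for the perilipin of tissues that oxidise much fat, where it brings droplets and mitochondria together. Its level was 1.66, 4.18, 5.39 and 3.05 CPM in Ctrl mice 1 to 4, 2.51, 1.72, 2.88 and 2.61 CPM in Model mice, and 5.19, 5.53, 4.95 and 8.80 CPM in YHY mice. All YHY mice lay above all Model mice, while the Model mice lay within the range of the Ctrl mice. YHY 4 stood above the other 3 of its group, and Ctrl 3 overlapped with the YHY mice. Plin5 was 2.52-fold higher in YHY than in Model mice (log2 fold change 1.33, SE 0.34, adjusted p = 0.0186; exact permutation p = 0.0286). That call was lost without Model 2 (adjusted p = 0.0537) and in the fit of 9 mice (0.081). Between Model and Ctrl the log2 fold change was -0.55 (SE 0.34, adjusted p = 0.211), and with 1 mouse left out it ranged from -0.84 without Ctrl 1 (adjusted p = 0.0483) to -0.33 without Ctrl 3 (adjusted p = 0.493). Total-count scaling gave -0.96 (adjusted p = 0.0352), and 16 of all 18 alternatives did not call it. For YHY against Ctrl it was 0.78 (SE 0.33, adjusted p = 0.0612), and with 1 mouse left out it ranged from 0.48 without Ctrl 1 (adjusted p = 0.222) to 0.98 without Ctrl 3 (adjusted p = 0.0311). Total-count scaling gave 0.35 (adjusted p = 0.421), and 14 of all 18 alternatives did not call it.

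Plin4 and Plin5 are neighbours on the minus strand of chromosome 17. In GRCm39 coordinates as deposited, Plin4 (ENSMUSG00000002831) spans chr17:56407591-56416803 and Plin5 (ENSMUSG00000011305) spans chr17:56418601-56424596, with 1797 bases between them. Plin3 (ENSMUSG00000024197) lies 159879 bases beyond Plin5 on the same strand, at chr17:56584476-56599873. Plin2 (ENSMUSG00000028494) is on chromosome 4, at chr4:86566623-86588297 on the minus strand. All 10 genes are annotated as protein coding. The rise of both neighbours in YHY mice against Model mice makes their promoters of interest, as does the opposite sign of Plin2 and Plin4 between Model and Ctrl.

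Promoters from RefSeq (build GRCm38.p6, a different build from that of the deposited coordinates) were found for 7 of the 10 genes, with 2 entries for Plin5. Fabp4, Dgat1 and Dgat2 had no entry. Each promoter runs from 250 bases before to 50 bases after the start of the gene. PPAR and RXR receptor pairs are known to bind a direct repeat of the hexamer AGGTCA with a single base between the copies, and many genes of lipid storage are PPAR targets. AGGTCANAGGTCA was therefore searched on both strands with up to 2 mismatches, and the hexamer AGGTCA without mismatch; a repeat can contain the hexamer, so matches of both kinds can overlap. Capitals mark the matches in the sequences, which are shown 5′ to 3′ on the strand of the gene. The Plin2 promoter is chr4:86670010-86670309, the Plin4 promoter chr17:56109733-56110032 and the upstream Plin5 entry chr17:56117499-56117798, all on the minus strand.
Plin2: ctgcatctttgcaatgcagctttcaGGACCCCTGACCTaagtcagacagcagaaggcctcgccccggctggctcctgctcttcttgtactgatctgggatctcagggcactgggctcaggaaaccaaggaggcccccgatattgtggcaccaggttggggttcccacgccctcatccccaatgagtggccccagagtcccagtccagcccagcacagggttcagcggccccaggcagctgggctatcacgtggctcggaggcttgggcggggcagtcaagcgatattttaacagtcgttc
Plin4: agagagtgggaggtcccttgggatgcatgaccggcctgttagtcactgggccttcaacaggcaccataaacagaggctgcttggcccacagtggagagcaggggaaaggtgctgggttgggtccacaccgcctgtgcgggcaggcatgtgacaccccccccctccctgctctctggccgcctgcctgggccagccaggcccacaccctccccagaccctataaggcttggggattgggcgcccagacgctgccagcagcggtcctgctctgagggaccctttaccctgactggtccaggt
Plin5: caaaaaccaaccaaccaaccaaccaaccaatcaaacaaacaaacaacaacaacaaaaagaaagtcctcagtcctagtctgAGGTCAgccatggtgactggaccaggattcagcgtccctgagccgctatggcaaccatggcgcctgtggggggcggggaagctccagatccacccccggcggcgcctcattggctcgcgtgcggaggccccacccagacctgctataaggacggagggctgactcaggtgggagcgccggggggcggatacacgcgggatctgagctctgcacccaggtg

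The Plin2 promoter held the repeat with 2 mismatches, with the hexamer inside it, both read on the strand opposite to the gene. Both Plin5 entries held the hexamer but not the repeat. The closest match to the repeat was in the Fabp1 promoter, with 1 mismatch (AGGCCATAGGTCA, read on the strand opposite to the gene), and that promoter held 2 hexamers, of which 1 lies inside the repeat. The Plin4 promoter held neither, nor did those of Plin3 and Pnpla2. Of the 32851 RefSeq promoters of this length, 3.86% held the repeat with up to 2 mismatches and 16.3% held the hexamer, against 3 and 5 of the 8 promoters of these genes. The exact repeat was in 0.0396% of all promoters and in 0 of the 8. These matches describe letters in a window of 300 bases, and binding was not measured.

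The shares of the perilipins in their summed FPKM are a description, and no share was tested. Plin4 made up 0.975, 0.878, 0.976 and 0.885% of the family in Ctrl mice 1 to 4, 7.12, 17, 16.2 and 16.3% in Model mice, and 31.2, 15.7, 29.4 and 12.9% in YHY mice. All Ctrl mice lay under 1%, and the Model and YHY mice overlapped. Plin2 accounted for most of the family in Ctrl mice, at 69.7% ± 3.91 (SD, n = 4), for 52.9% ± 2.76 in Model mice, and for 39.3, 60.6, 40.3 and 62.8% in YHY mice 1 to 4. YHY 1 and 3 thus had the highest Plin4 shares and the lowest Plin2 shares of their group. Plin3 had mean shares of 22.9% ± 3.94, 25.8% ± 3.94 and 16.4% ± 4.03 in Ctrl, Model and YHY mice, and its Ctrl values overlapped with those of both other groups. Plin5 had shares of 6.53% ± 2.27, 7.22% ± 1.13 and 10.6% ± 1.21, with the Model mice inside the Ctrl range and the YHY mice above all others. The summed perilipin level was 25.4 ± 3.39 FPKM over the Ctrl mice, 16.0 ± 1.57 FPKM over the Model mice and 27.3 ± 4.80 FPKM over the YHY mice. These shares depend on the gene length used: with the length of the principal transcript, the mean Plin4 share was 0.636, 10.6 and 17.1% and the mean Plin2 share 80.3, 66.3 and 63.6%.

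**Figure D2:**
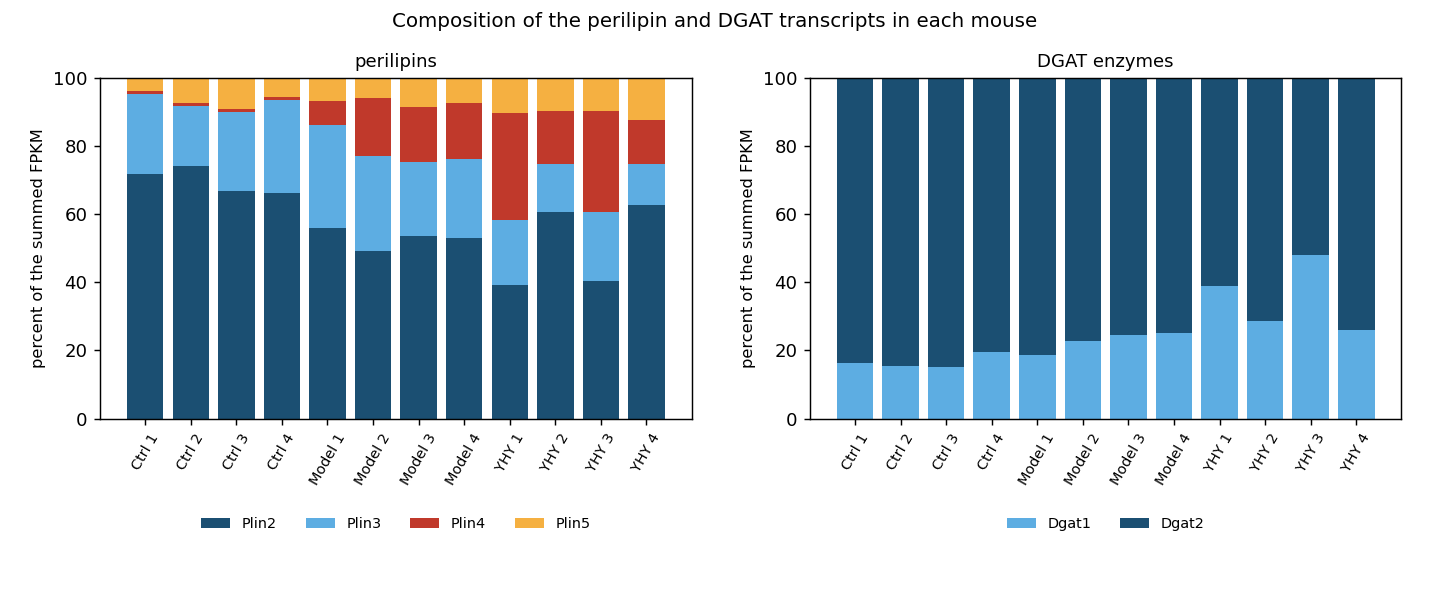
Stacked bars give the percent of the summed FPKM (vertical axis) of the perilipins Plin2 to Plin5 on the left and of Dgat1 and Dgat2 on the right, with 1 bar for each of the 12 mice. The Plin4 share lies under 1% in every Ctrl mouse and between 12.9% and 31.2% in the YHY mice, and the Dgat2 share has its lowest value, 52.1%, in YHY 3.

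Cd36 codes for the fatty acid translocase, a scavenger receptor that takes up long-chain fatty acids and oxidised lipoproteins at the cell surface. Its gene (ENSMUSG00000002944) lies at chr5:17986688-18093799 on the minus strand. The level of Cd36 was 361, 336, 325 and 204 CPM in Ctrl mice 1 to 4, 50.9, 41.8, 40.4 and 37.4 CPM in Model mice 1 to 4, and 19.7, 37.3, 15.7 and 28.4 CPM in YHY mice 1 to 4. The lowest Ctrl mouse, Ctrl 4, lay above every db/db mouse. The YHY mice all lay under the Model mice, but YHY 2, at 37.3 CPM, was next to Model 4, at 37.4 CPM. Cd36 was 7.19-fold lower in Model than in Ctrl mice (log2 fold change -2.85, SE 0.26, adjusted p = 2.38e-06) and 12.1-fold lower in YHY than in Ctrl mice (log2 fold change -3.60, SE 0.26, adjusted p = 1.13e-07). Both differences had a two-sided exact permutation p of 0.0286. Between YHY and Model the log2 fold change was -0.76 (SE 0.24) and the adjusted p was 0.0502, just outside the threshold, with an exact permutation p of 0.0286 and lower levels in 4 of 4 YHY mice. That difference passed the threshold with DESeq2 (adjusted p = 0.0199), with upper-quartile (0.046) or total-count scaling (0.035), without a filter on low counts (0.0102), with at least 10 counts in every mouse (0.0455), without YHY 2 (0.0155, log2 fold change -1.0) and without YHY 4 (0.0479). It was also called by a fold over 1.2 with an unadjusted p under 0.05, and it was not called in the other 10 of the 18 alternatives, with an adjusted p of up to 0.12 and a log2 fold change of -0.59, both without YHY 3.

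The Cd36 promoter (RefSeq, GRCm38.p6, chr5:17835847-17836146, minus strand) is shown because Cd36 had the largest fall of the 10 genes between Model and Ctrl. Capitals mark the hexamer and the repeat with 2 mismatches described above, which lie apart from each other.
Cd36: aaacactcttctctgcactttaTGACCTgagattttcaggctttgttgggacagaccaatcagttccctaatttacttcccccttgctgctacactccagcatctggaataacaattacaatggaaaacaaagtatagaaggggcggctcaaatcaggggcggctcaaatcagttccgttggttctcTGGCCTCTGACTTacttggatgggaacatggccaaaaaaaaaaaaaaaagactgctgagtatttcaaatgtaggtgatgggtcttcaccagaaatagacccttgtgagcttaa

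The deposited length of Fabp4, 4489 bases, equals its whole genomic span with introns, as it does for 11.4% of the genes tested, so its FPKM is low for the counts it had and Fabp4 is left out of the order of levels. By mean FPKM, Cd36 was the highest of the other 9 genes in Ctrl mice, at 85.4 ± 19.5 (SD, n = 4), ahead of Dgat2 at 36.1 ± 5.95 and Pnpla2 at 32.0 ± 4.03, which lay within their spread of each other. Plin2 followed at 17.7, Dgat1 at 7.18, Plin3 at 5.78, Plin5 at 1.71, Plin4 at 0.235 and Fabp1 at 0.171 FPKM. In Model mice Dgat2 (28.3 ± 3.23) and Pnpla2 (27.6 ± 2.16) led these 9 and did not differ beyond their spread, and Cd36 stood at 11.9 ± 1.61 FPKM. The lowest 3 there were Plin4 at 2.23, Fabp1 at 1.18 and Plin5 at 1.16 FPKM. In YHY mice Pnpla2 was highest of the 9 at 40.9 ± 4.30 FPKM, followed by Dgat2 at 16.8 ± 8.58 and Plin2 at 14.2, which lay within their spread of each other. Cd36, at 7.04 ± 2.68 FPKM, and Plin4, at 5.79 FPKM, were neighbours in that order. The order rests on the deposited lengths. Those of Plin2 (3512 bases), Dgat1 (3056) and Dgat2 (3083), for example, exceed the lengths of their principal transcripts (1888, 1888 and 2262). The order of genes with close values thus depends on the length used. Among the 17431 genes tested, the rank of Cd36 by mean FPKM was 481 in the Ctrl mice, 2494 in the Model mice and 3840 in the YHY mice.

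Fabp1 codes for the liver-type fatty acid-binding protein and was close to the limit of detection. The gene (ENSMUSG00000054422) lies at chr6:71176811-71182007 on the plus strand. Its counts were 6, 0, 4 and 6 in Ctrl mice 1 to 4, 42, 16, 8 and 3 in Model mice, and 0, 2, 17 and 88 in YHY mice, which gave at most 0.144 CPM in Ctrl mice, 1.35 CPM in Model mice and 3.41 CPM in YHY mice. YHY 4 and Model 1 were the highest mice, while YHY 1 and Ctrl 2 had no count. All 3 groups overlapped. Fabp1 passed the threshold between YHY and Ctrl (log2 fold change 3.37, SE 1.2, adjusted p = 0.0279), although the exact permutation p was 0.343 and YHY 1 was at 0. Without YHY 4 the log2 fold change was 1.3 and the adjusted p 0.346, and the call was also lost without Ctrl 1 (0.0554), Ctrl 2 (0.0688), Ctrl 3 (0.0687) or Ctrl 4 (0.0546) and with total-count scaling (0.0503). The replicate block ended that call as well. Between Model and Ctrl the log2 fold change was 2.71 (SE 1.19, adjusted p = 0.0848), called in 3 of 15 alternatives, DESeq2 (0.0464) among them, and not in the other 12. Between YHY and Model it was 0.66 (SE 1.06, adjusted p = 0.737), with a range from -1.36 without YHY 4 to 1.30 without Model 1.

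Fabp4, the fatty acid-binding protein of adipocytes, macrophages and capillary endothelium, showed no difference past the threshold. The gene (ENSMUSG00000062515) lies at chr3:10269148-10273636 on the minus strand. Its level ranged from 41.3 to 62.4 CPM over the Ctrl mice, from 47.6 to 59.3 CPM over the Model mice and from 50.4 to 88.4 CPM over the YHY mice, and all 3 groups overlapped, with YHY 3 the highest mouse. Its log2 fold changes were 0.01 for Model against Ctrl, 0.26 for YHY against Model and 0.27 for YHY against Ctrl (SE 0.18 each), with adjusted p of 0.96, 0.369 and 0.22. The first of these turned to -0.09 without Ctrl 2, and leaving out Ctrl 1, Ctrl 4, Model 1 or Model 4 also turned its sign, at -0.01, -0.04, -0.07 and -0.04.

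Dgat1 and Dgat2 code for unrelated enzymes that each add the last fatty acid to make triglyceride. The genes lie on the minus strand, Dgat1 (ENSMUSG00000022555) at chr15:76386215-76396153 and Dgat2 (ENSMUSG00000030747) at chr7:98802865-98831926. Dgat1 ranged from 18.2 to 25.5 CPM over the Ctrl mice, from 23.4 to 28.0 CPM over the Model mice and from 20.6 to 28.4 CPM over the YHY mice, with overlap of all 3 groups. Its log2 fold changes were 0.21, -0.03 and 0.18 in the order Model against Ctrl, YHY against Model and YHY against Ctrl, with adjusted p of 0.303, 0.94 and 0.343. The difference near 0 between YHY and Model became 0.02 without Model 4 and 0.05 without YHY 1. Total-count scaling turned the other 2 values to -0.22 and -0.26, which relative to the shifted medians were 0.17 and 0.07.

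Dgat2 was the more abundant enzyme per length. Its level was 97.9, 138, 104 and 105 CPM in Ctrl mice 1 to 4, 102, 80.4, 82.4 and 84.1 CPM in Model mice 1 to 4, and 32.7, 66.5, 26.5 and 81.5 CPM in YHY mice 1 to 4. Every YHY mouse lay under every Ctrl mouse, and YHY 1 and 3 were well under YHY 2 and 4. YHY 4 overlapped with Model 2, and Model 1 overlapped with Ctrl 1. Dgat2 was 2.15-fold lower in YHY than in Ctrl mice (log2 fold change -1.10, SE 0.28, adjusted p = 0.00358; exact permutation p = 0.0286). Between YHY and Model the log2 fold change was -0.75 (SE 0.28, adjusted p = 0.0833; exact permutation p = 0.0571). It was called by DESeq2 (adjusted p = 0.0422), without a filter on low counts (0.0142), in the fit of 9 mice (0.0253), without YHY 4 (0.0122, log2 fold change -1.07), and by a fold over 1.2 with an unadjusted p under 0.05. The other 13 of the 18 alternatives did not call it, with an adjusted p of up to 0.188 (without YHY 1) and a log2 fold change as small as -0.54 (without YHY 3). Between Model and Ctrl the log2 fold change was -0.35 (SE 0.27, adjusted p = 0.334; exact permutation p = 0.0571), and this passed the threshold only in the fit of the 8 mice compared (0.0497) and with total-count scaling (0.0237). Of the summed FPKM of both enzymes, Dgat2 held 83.4% ± 2.10 in Ctrl, 77.2% ± 2.84 in Model and 64.7% ± 10.0 in YHY mice, where the 4 values were 61.2, 71.4, 52.1 and 74.0%. The sum itself was 43.2 ± 6.76, 36.6 ± 2.99 and 24.9 ± 9.53 FPKM. With the length of the principal transcript the mean Dgat2 share was 80.8, 74.1 and 60.8%.

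Pnpla2 codes for adipose triglyceride lipase, which cuts the first fatty acid from stored triglyceride. The gene (ENSMUSG00000025509) lies at chr7:141035111-141040656 on the plus strand. Its level was 87.4, 111, 86.1 and 102 CPM in Ctrl mice 1 to 4, 91.8, 83.9, 81.3 and 76.2 CPM in Model mice 1 to 4, and 108, 140.1, 122 and 124 CPM in YHY mice 1 to 4. All YHY mice lay above all Model mice. Ctrl 2 lay above YHY 1, and Model 1 lay above Ctrl 1 and Ctrl 3. Pnpla2 was 1.48-fold higher in YHY than in Model mice (log2 fold change 0.57, SE 0.14, adjusted p = 0.0159; exact permutation p = 0.0286). This call was lost without Model 3 (adjusted p = 0.0558) and with total-count scaling (0.0712). Pnpla2 was also called between YHY and Ctrl, at 1.28-fold (log2 fold change 0.35, SE 0.14, adjusted p = 0.0459; exact permutation p = 0.0571). That call was lost without Ctrl 1 (0.228), Ctrl 3 (0.24), Ctrl 4 (0.115), YHY 2 (0.12), YHY 3 (0.0714) or YHY 4 (0.0656), without a filter on low counts (0.184) and in the fit of the 8 mice compared (0.0863). The replicate block ended that call too. Total-count scaling turned the log2 fold change to -0.09, which was 0.24 relative to the shifted median. Between Model and Ctrl the log2 fold change was -0.22 (SE 0.14, adjusted p = 0.239), called only with total-count scaling (0.0089).

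**Figure D3:**
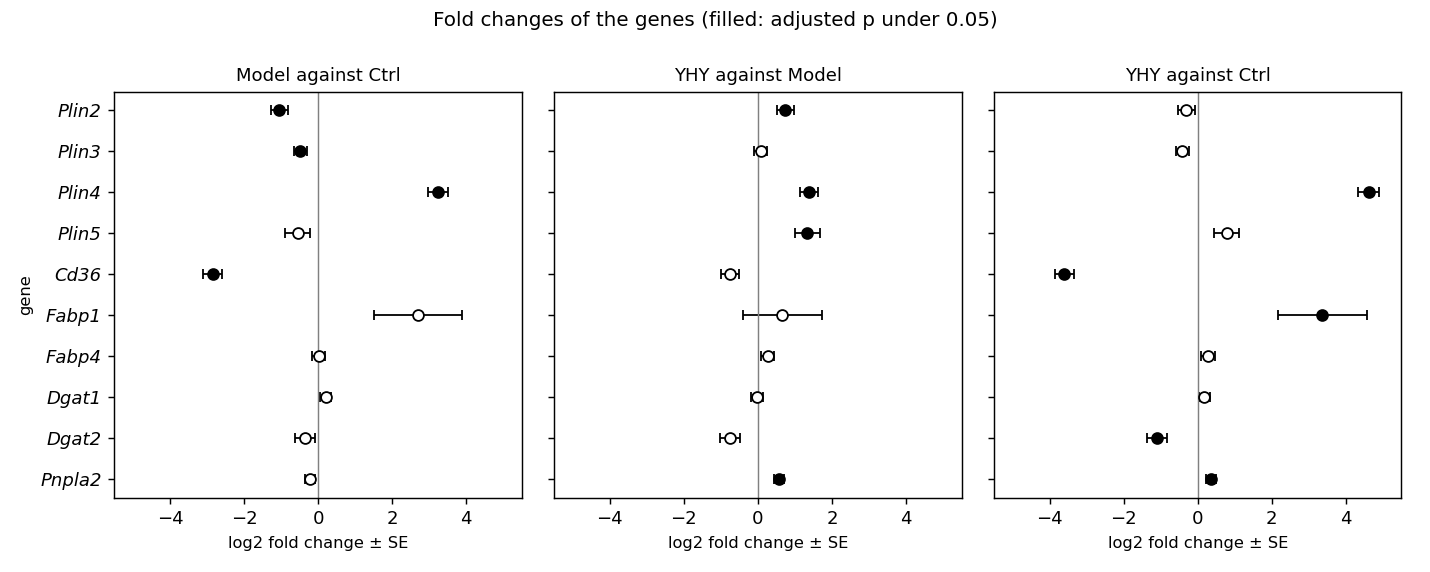
Log2 fold change with its SE (horizontal axis) of each of the 10 genes (vertical axis) for Model against Ctrl, YHY against Model and YHY against Ctrl, with 4 mice a group and filled points for an adjusted p under 0.05. Plin4 lies to the right in all 3 panels, at 3.24, 1.38 and 4.62, and Cd36 to the left, at -2.85, -0.76 and -3.60, of which the middle value was not called.

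The genes around these 10 were taken from 7 further lists of lipid genes. Pooled over 5 of them (droplet coats and assembly, lipolysis, triglyceride synthesis, uptake and binding, and acyl-CoA synthetases), 46 of 55 genes were tested. Of the 46, 8 (17.4%) were called higher and 15 (32.6%) lower between Model and Ctrl, against 19.6% and 18.5% of all genes. The numbers between YHY and Model were 3 (6.52%) and 6 (13%), against 5.63% and 7.62%, and between YHY and Ctrl 12 (26.1%) and 21 (45.7%), against 26.1% and 24.2%. The shares called higher were thus close to those of all genes, and the larger shares called lower were not tested. The median log2 fold changes of the 46 were -0.09, -0.15 and -0.20, beside 0.04, 0.02 and 0.10 over all genes tested.

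Among 8 tested genes of droplet coats and assembly (12 of the 13 listed were in the count table), 1 was called higher and 2 lower between Model and Ctrl, 1 and 2 between YHY and Model, and 2 and 4 between YHY and Ctrl. Hsd17b11, a droplet-bound dehydrogenase, had log2 fold changes of -2.26 in Model mice (adjusted p = 6.66e-05) and -2.75 in YHY mice (5.37e-06) against Ctrl. Rab18, a small GTPase of the droplet surface, fell in all 3 comparisons, with log2 fold changes of -0.86, -0.73 and -1.59. Bscl2, which codes for seipin, the protein that organises droplet budding, was higher in Model than in Ctrl mice by 0.36 (adjusted p = 0.0491) and lower in YHY than in Model mice, at -0.80 (adjusted p = 0.0022). G0s2, an inhibitor of adipose triglyceride lipase, rose in YHY mice by 1.23 against Model (adjusted p = 0.0298) and by 1.04 against Ctrl (0.0199), with overlapping groups in both. Hilpda, another inhibitor of that lipase, was 1.25 higher and Fitm2, which promotes droplet formation, had a log2 fold change of -0.60, both in YHY against Ctrl.

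In the lipolysis list 3 of 8 tested genes were called higher and 4 lower between Model and Ctrl, and the same numbers between YHY and Ctrl. Hormone-sensitive lipase (Lipe) rose by 0.84 in Model and by 1.25 in YHY mice against Ctrl on the log2 scale, monoglyceride lipase (Mgll) by 1.00 and 0.46, and Ddhd2 by 0.65 and 0.75. The carboxylesterases Ces1f (-2.23 and -2.79) and Ces1d (-1.56 and -1.38) and lysosomal acid lipase (Lipa, -1.15 and -1.32) fell. Ces1f and Ces1d belong to a cluster of near-identical copies, so the split of counts between them is uncertain. Between YHY and Model edgeR called 0 genes of this list in either direction; at an unadjusted p under 0.05 there were 1 higher and 2 lower, and DESeq2 called 0 higher and 1 lower.

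Of 14 genes of triglyceride synthesis, 3 were called higher and 3 lower between Model and Ctrl, and 4 and 6 between YHY and Ctrl. The glycerol-3-phosphate acyltransferases Gpat2 (log2 fold change 1.97) and Gpat3 (1.65) and the phosphatidate phosphatase Lpin3 (1.32) rose in Model mice. The monoacylglycerol acyltransferase Mogat1 (-1.88) and the acyltransferases Agpat5 (-0.67) and Agpat1 (-0.37) fell. In YHY mice against Model mice, Agpat3 (-0.54), Agpat2 (-0.50) and Gpat4 (-0.42) fell, with no overlap of the groups for any of the 3. No gene of the list was called higher there by edgeR; 1 was higher at an unadjusted p under 0.05, and DESeq2 called 0. In YHY mice against Ctrl mice, Gpat2 (2.27), Lpin3 (1.35) and Gpat3 (1.13) had the largest rises. Mogat1 (-2.01), Mogat2 (-1.62) and Agpat5 (-0.91) had the largest falls. Gpat3 and Mogat2 overlapped between these groups. Gpat2 had few counts, 8 to 30 in Ctrl, 33 to 49 in Model and 29 to 67 in YHY mice.

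Among 11 tested genes of fatty acid uptake and binding (15 in the table), 1 was called higher and 4 lower between Model and Ctrl, 1 and 1 between YHY and Model, and 2 and 5 between YHY and Ctrl. The transporter Slc27a1 rose in all 3 comparisons, with log2 fold changes of 1.23, 0.68 and 1.91 and no overlap of the groups, opposite in sign to Cd36. Lipoprotein lipase (Lpl), which frees fatty acids from circulating triglyceride, had log2 fold changes of -1.83 in Model and -1.94 in YHY mice against Ctrl. Slc27a4 (-0.55) and Slc27a2 (-0.53), which activate long-chain fatty acids as they enter, were lower in Model than in Ctrl mice. Fabp7 was lower in YHY mice, at -2.00 against Model (adjusted p = 0.0467) and -2.32 against Ctrl (0.00609). Its counts ran from 31 to 329 in Model and from 10 to 90 in YHY mice, and these 2 groups overlapped. Gpihbp1, the capillary anchor of lipoprotein lipase, rose by 0.97 and the acyl-CoA-binding protein Dbi had a log2 fold change of -1.52, both in YHY against Ctrl.

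Of the 5 acyl-CoA synthetases, which trap fatty acids in the cell, Acsl3 (-0.87) and Acsl5 (-0.53) were lower in Model than in Ctrl mice. No synthetase was called higher there by edgeR, by DESeq2 or at an unadjusted p under 0.05 (0 of 5 each). Acsl1 rose by 1.05 in YHY mice against Model mice (adjusted p = 0.0137), with no overlap of the groups, and 0 were called lower by either tool or at an unadjusted p under 0.05. Between YHY and Ctrl, 1 synthetase was called higher (Acsl1, 1.08) and 2 lower (Acsl3, -0.78, and Acsl5, -0.66).

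The PPAR receptors, their RXR partners and the coactivator Ppargc1a made up a list of 7 tested genes. Between Model and Ctrl, Rxrb rose by 0.49 on the log2 scale, and Ppard (-1.30) and Rxra (-0.47) fell. Rxra was lower again in YHY than in Model mice, at -0.62 (adjusted p = 0.0239), the only call of the list there; edgeR and DESeq2 called 0 higher, 0 were higher at an unadjusted p under 0.05, and 2 were lower by either of these measures. Ppara rose by 1.00 in YHY against Ctrl, where Ppard (-1.11) and Rxra (-1.09) fell. Of 11 tested genes known as PPAR targets (12 in the table), 3 were called higher and 3 lower between Model and Ctrl. The numbers were 2 and 0 between YHY and Model and 5 and 2 between YHY and Ctrl. For the 0 lower genes, an unadjusted p under 0.05 and DESeq2 also gave 0. Beside both lists, edgeR called 19.6% of all genes higher and 18.5% lower between Model and Ctrl. The shares were 5.63% and 7.62% between YHY and Model and 26.1% and 24.2% between YHY and Ctrl.

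Members of that target list did not move as a group between Model and Ctrl. The lipase inhibitor Angptl4 rose by 1.43 and the thioesterase Acot2 by 1.06 on the log2 scale. The peroxisomal enzyme Ehhadh (-2.45) and the thioesterase Acot1 (-1.10) fell; Acot1 and Acot2 are close copies, so reads could be split between them. In YHY mice against Model mice, Pdk4, the kinase that shuts off pyruvate dehydrogenase, rose by 2.58 (SE 0.38, adjusted p = 0.000884) and Angptl4 by 0.94 (adjusted p = 0.0496). Both had values above every Model mouse in all 4 YHY mice. In YHY mice against Ctrl mice, Creb3l3 (4.05, from few counts) and Angptl4 (2.37) rose, and Ehhadh (-1.89) fell.

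The genes most like each member were those with the smallest root mean square difference of log2 CPM over the 12 mice, after each gene's own mean was removed, among 12139 candidates. For Cd36 these were Acy3 (0.21), Tmigd1 (0.29) and Slc7a13 (0.31), against a spread of 1.60 for Cd36 itself. Dgat2 was nearest to Cda (0.17), Dao (0.20) and Pth1r (0.20), with a spread of its own of 0.67. Plin2 was nearest to Acot12 (0.17), Atl2 (0.18) and Ncoa7 (0.19), at a spread of 0.54. For Plin4 the nearest were Amy1 (0.42), Lgals4 (0.52) and Zim1 (0.61), against 1.92. Those of Plin5 were Plscr4 (0.39), Secisbp2 (0.40) and Sirt1 (0.41) against 0.69, and those of Fabp1 Tchhl1 (0.98), Kcnip2 (0.99) and Spns3 (1.04) against 1.65. The genes that varied little had their neighbours at 0.11 to 0.17. These were Pkd2, Prkar1a and Eps15 for Plin3 (spread 0.29) and Purb, Ifitm3 and Aptx for Fabp4 (0.26). Ints1, Rmdn1 and Med25 were nearest to Dgat1 (0.20), and Cul4b, Rfx1 and Supt6 to Pnpla2 (0.27).

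The summed level of the 9 proximal tubule markers was 5127, 6489, 5366 and 4063 CPM in Ctrl mice 1 to 4, 3959, 3753, 4169 and 3182 CPM in Model mice 1 to 4, and 1528, 3355, 2079 and 4287 CPM in YHY mice 1 to 4. YHY 1 and 3 were the lowest of all 12 mice, as they were for Cd36 and Dgat2. YHY 4 lay within the Ctrl range of the marker sum, with Slc34a1 at 2724 CPM and with Slc5a2 and Slc5a12 above every Ctrl mouse. Its levels of Lrp2, Cubn, Slc22a6, Slc7a13, Hnf4a and Gatm lay under those of every Ctrl mouse. The Cd36 level of YHY 4, 28.4 CPM, was under that of every Ctrl and Model mouse. By edgeR, 0 of the 9 were called higher and 3 lower between Model and Ctrl (Slc7a13, -2.33; Lrp2, -1.68; Cubn, -0.90), and 0 higher and 3 lower between YHY and Model (Gatm, -1.92; Slc7a13, -1.11; Hnf4a, -0.94). DESeq2 and an unadjusted p under 0.05 gave 0 higher in both, with 4 and 5 lower. The other 6 were not called between Model and Ctrl, where Slc22a6 (-0.73, adjusted p = 0.0633, no overlap of the groups) and Gatm (-0.50) had log2 fold changes under 0 and Slc5a12 (0.79), Slc5a2 (0.42), Slc34a1 (0.06) and Hnf4a (0.06) above 0. The median log2 fold change of the 9 was -0.50 for Model against Ctrl, -0.63 for YHY against Model and -1.53 for YHY against Ctrl, beside 0.04, 0.02 and 0.10 over all genes. The most abundant marker, Slc34a1, averaged 2041 CPM over the Ctrl mice and 2126 CPM over the Model mice. Of all genes, edgeR called 19.6% higher and 18.5% lower between Model and Ctrl, and 5.63% and 7.62% between YHY and Model. An unadjusted p under 0.05, in either direction, held for 8179 and 4989 of the 17431 genes in these comparisons. Between YHY and Ctrl edgeR called 26.1% of all genes higher and 24.2% lower. YHY against Ctrl gave 6 called lower and 1 higher, Slc5a12 (log2 fold change 2.11, adjusted p = 0.0363; exact permutation p = 0.457), which DESeq2 did not call. Slc5a12 stood at 223 CPM in YHY 4 and at 9.12 to 24.7 CPM in the other YHY mice, beside 3.69 to 25.4 CPM in the Ctrl mice. The part of this in the levels of the 10 genes was not tested.

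**Figure D4:**
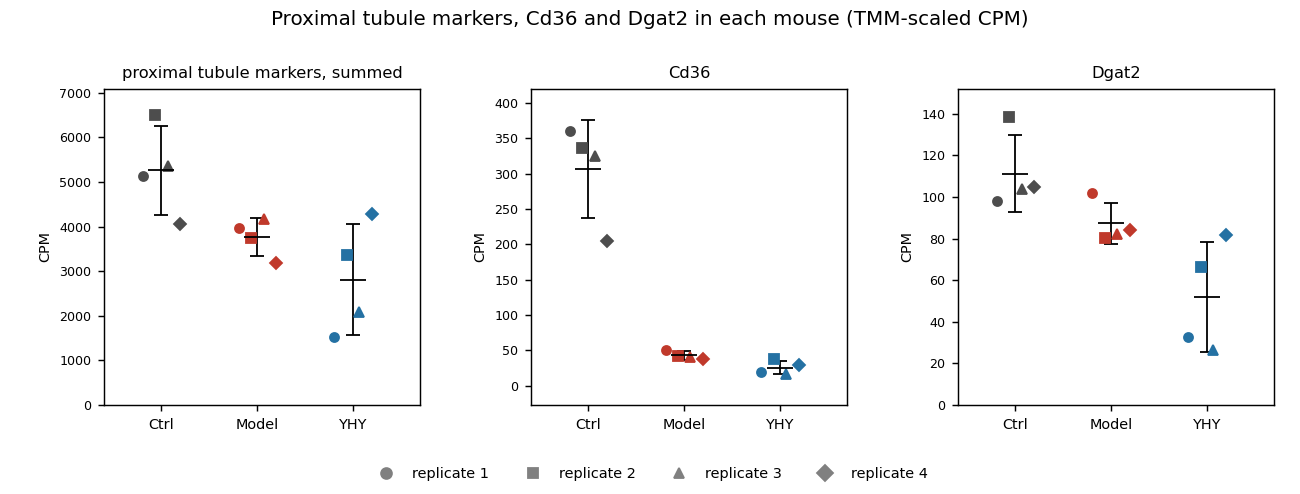
TMM-scaled CPM (vertical axis) of the 9 proximal tubule markers summed, of Cd36 and of Dgat2 in the 3 groups, with 1 symbol per mouse, the shape giving the replicate number, and bars for the mean and SD of 4 mice. YHY 1 and YHY 3 are the lowest mice in all 3 panels, with marker sums of 1528 and 2079 CPM.

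Adipocyte markers were near 0 in every mouse. Their summed level averaged 0.534 ± 0.135 CPM over the Ctrl mice, 1.76 ± 0.737 CPM over the Model mice and 1.29 ± 0.938 CPM over the YHY mice (SD, n = 4), with no mouse above 2.86 CPM. Cidec was the most abundant of the 7 in 10 of the 12 mice, Plin1 had at most 4 counts and Adipoq at most 10, and both were at 0 in all Ctrl mice but for 1 count of Adipoq in Ctrl 3. Only 1 of the 7 had enough counts to be tested, and edgeR, DESeq2 and an unadjusted p under 0.05 all gave 0 calls in each comparison. These markers summed to at most 0.655 CPM in the Ctrl mice, where Plin4 was at most 1.739 CPM. The sums were 1.32, 2.86, 1.55 and 1.33 CPM in Model mice 1 to 4, beside Plin4 at 7.887, 15, 16.35 and 17.44 CPM. In YHY mice 1 to 4 they were 0.649, 0.332, 1.97 and 2.21 CPM, beside Plin4 at 47.17, 26.98, 45.04 and 27.94 CPM. The part of adipocytes in the Plin4 level was not tested. Brown adipocyte markers (at most 0.534 CPM) and skeletal muscle markers (at most 0.857 CPM) were also near 0, with no gene tested.

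Endothelial markers, relevant to Fabp4 and Cd36, summed to 378 ± 53.4 CPM in the Ctrl mice, 432 ± 51.9 CPM in the Model mice and 444 ± 83.9 CPM in the YHY mice, with Plvap the most abundant. Of 10, 3 were called higher between Model and Ctrl (Ehd3, 0.72; Egfl7, 0.70; Flt1, 0.67) and 4 between YHY and Ctrl. Between YHY and Model edgeR called 0, an unadjusted p under 0.05 gave 1 in each direction and DESeq2 called 1 lower. Macrophage markers summed to 119 ± 18.7, 114 ± 25.4 and 133 ± 39.0 CPM, with Csf1r or Gpnmb the most abundant. Gpnmb (2.01), Trem2 (1.67) and Cd68 (1.05), known from lipid-laden macrophages, rose and C1qc (-1.62), C1qa (-1.08) and C1qb (-1.0) fell in Model mice against Ctrl mice. Against Ctrl mice, YHY mice had 4 called higher and 2 lower. Between YHY and Model edgeR and DESeq2 called 0, with 2 higher at an unadjusted p under 0.05. Set beside both lists, edgeR called 19.6% of all genes higher and 18.5% lower between Model and Ctrl. Those shares were 5.63% and 7.62% between YHY and Model and 26.1% and 24.2% between YHY and Ctrl.

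Hepatocyte markers, set beside Fabp1, summed to 217 ± 59.9, 212 ± 56.5 and 179 ± 50.3 CPM, nearly all from Serpina1a, a gene of a near-identical family. Ahsg was at 0 in 11 of the 12 mice. Of 4 tested, Ttr (2.33) and Apoa1 (1.35) were called higher in Model mice and the same 2 in YHY mice (2.38 and 2.06) against Ctrl, and edgeR, DESeq2 and an unadjusted p under 0.05 gave 0 between YHY and Model. Markers of other nephron segments summed to 2531 ± 731, 1587 ± 197 and 1887 ± 478 CPM. Nphs1 (1.86) and Slc12a3 (1.33) rose and Umod (-2.86) and Aqp2 (-1.18) fell in Model mice against Ctrl mice, and the same 4 were called in the same directions between YHY and Ctrl. Of these 6, edgeR called 0 between YHY and Model, an unadjusted p under 0.05 gave 1 in each direction and DESeq2 called 1 higher. For all genes, the shares called by edgeR were 19.6% higher and 18.5% lower between Model and Ctrl. They were 5.63% and 7.62% between YHY and Model and 26.1% and 24.2% between YHY and Ctrl. The part of any of these cell types in the levels of the 10 genes was not tested.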

How the data were processed

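Bulk polyA-selected RNA from 12 kidneys was sequenced, and the table of whole-number counts per gene deposited by the authors was used together with its column of gene lengths in bases. The submitters' processing notes name FastQC 0.11.9, Trimmomatic 0.39, HISAT2 2.2.1, SAMtools 1.12, featureCounts 2.0.1, DESeq2 1.34.0, R 4.1.2 and the build GRCm39; the strand setting and the annotation release are not given in the sources used here, so reads of overlapping antisense genes cannot be told apart. The deposited comparison tables hold the authors' group means of normalised signal, used to find which mice they averaged, and their log2 fold changes and p-values, which were not used. The 12 per-sample columns beside them and the tables of KEGG pathways were not used either.

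Groups followed the sample titles, and the members and lists were chosen with earlier results of these data known. Genes passing edgeR's filterByExpr (17431) were scaled by TMM and tested in a single fit of all 12 mice with edgeR 4.0.16 (R 4.3.3, limma 3.58.1 and version 1.17.8 of data.table; glmQLFit and glmQLFTest, two-sided, prior count 0.125). P-values were adjusted by Benjamini-Hochberg, and genes were called at an adjusted p under 0.05 with no fold limit. Single genes were also compared by two-sided exact permutation of group means of CPM. FPKM was computed from the deposited lengths. From each list the text names at most 3 called genes per direction and comparison, those with the largest changes, and for likeness the 3 nearest genes with a mean count of at least 50. Some genes that this rule names are not reported here. Gene lists were droplet coat and assembly, triglyceride synthesis, lipolysis, uptake and binding, acyl-CoA synthetases, PPAR receptors, other PPAR targets, and markers of proximal tubule, other nephron segments, endothelium, macrophages, adipocytes, brown adipocytes, hepatocytes and skeletal muscle.

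Alternatives were upper-quartile and total-count scaling, DESeq2 1.42.0, no filter, at least 10 counts in every mouse, the 8 mice compared, the 9 mice the authors averaged (without Ctrl 2, Model 1 and YHY 4), removal of mitochondrial transcripts, a replicate block, a fold over 1.2 with an unadjusted p under 0.05, and leaving out each mouse. The scripts were tested on simulated counts. Replicates were separate mice. Promoter sequences were searched with Python 3.11.15, and figures were drawn with matplotlib 3.10.9.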

Additional observations from a re-analysis of the deposited data

Results flagged for a closer look

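In 2 of the 30 sets of 4 mice, 1 mouse stood apart from the other 3. The gap to its nearest neighbour, divided by the range of the group, was above Dixon's 95% critical value for 4 samples. Chance alone gives such a gap in about 1 set in 20.

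Plin5 in YHY 4 was at 8.80 CPM, while the other 3 YHY mice lay between 4.95 and 5.53 CPM, a gap of 0.850 of the range. Dgat2 in Ctrl 2 was at 138 CPM, while the other 3 Ctrl mice lay between 97.9 and 105 CPM, a gap of 0.830 of the range.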

How the results depend on the processing

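Of 532 fold changes of the 10 genes recomputed under the alternatives, 440 kept their direction and their side of the threshold, 37 lost the call, 35 gained one and 20 changed sign. Plin4 in all 3 comparisons, Cd36 in both comparisons with Ctrl, Plin2 between Model and Ctrl and Dgat2 between YHY and Ctrl were called in every alternative run; their adjusted p reached at most 1.89e-05, 0.0102 and 1.06e-06 for Plin4, 3.98e-05 and 6.72e-06 for Cd36, 0.0107 for Plin2 and 0.0127 for Dgat2. Removing mitochondrial transcripts changed none of the 30 calls.

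Counts of genes called, higher then lower, were 1547 and 5667 between Model and Ctrl and 491 and 686 between YHY and Model with total-count scaling, and 2365 higher between YHY and Ctrl. A fold over 1.2 with an unadjusted p under 0.05 gave 2429 and 2559 between YHY and Model, and the fit of 8 mice gave 692 lower there. Without 1 mouse, genes higher between YHY and Model ranged from 419 (without Model 3) to 1045 (without YHY 4), and genes lower from 727 to 1678.

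Of the 10 genes, total-count scaling called 6 lower between Model and Ctrl, 2 higher and 1 lower between YHY and Model, and 1 higher and 4 lower between YHY and Ctrl. DESeq2, no filter and the fold rule each called 2 higher between Model and Ctrl and 2 lower between YHY and Model. Upper-quartile scaling and at least 10 counts called 1 lower between YHY and Model. The fit of 9 mice called 2 higher and 1 lower there and 4 lower between YHY and Ctrl, and the fit of 8 mice called 1 higher between YHY and Ctrl. Leaving out 1 mouse gave 2 to 4 higher and 0 to 2 lower between YHY and Model and 1 to 3 higher between YHY and Ctrl.

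With the replicate block, 1 gene was called higher between YHY and Ctrl, and calls were lost for Plin3 between Model and Ctrl (adjusted p = 0.0537), Plin2 between YHY and Model (0.0813), and Pnpla2 (0.059) and Fabp1 (0.102) between YHY and Ctrl. The numbers do not pair the mice: deviations of same-numbered mice correlated at -0.17 to 0.12 across genes, and not every mouse correlated best with its own number.

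Signs changed only for values not called, apart from Pnpla2 between YHY and Ctrl. With total-count scaling Fabp4 became -0.42 and Dgat1 -0.22 between Model and Ctrl, and Fabp4 -0.13, Dgat1 -0.26 and Pnpla2 -0.087 between YHY and Ctrl. Fabp4 between Model and Ctrl was -0.014 without a filter, -0.0061 in the fit of 8 mice and -0.17 in that of 9, and -0.095 to 0.067 without 1 mouse. Dgat1 between YHY and Model was 0.019 in the fit of 8 mice and -0.10 to 0.053 without 1 mouse. Fabp1 between YHY and Model was -0.31 with the replicate block and -1.36 to 1.30 without 1 mouse, and Plin3 there -0.0091 to 0.22. The shares by principal transcript length were chosen after seeing the data. For these changes the cause was not tested. Depth limits Fabp1 most, with at most 6 counts in any Ctrl mouse.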
